A study of Mus musculus with 6 samples.

Results

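Gene expression of epiblast-like cells (EpiLC) was compared with that of the mouse embryonic stem cells (mESC) they were made from, in pairs of cultures that had received the same treatment. The arrays were chosen by their labels alone, and they are all 6 arrays of the series, 3 labelled EpiLC and 3 labelled mESC. In each state 1 culture had no inhibitor, 1 had received CHIR99021 (CHIR) at 3 µM, which blocks the kinase GSK3, and 1 had received the same dose of CHIR plus PD0325901 (PD) at 1 µM, which blocks MEK, the kinase upstream of ERK. Exposure lasted 24 hours. The 6 groups are therefore EpiLC untreated, EpiLC with CHIR, EpiLC with CHIR and PD, mESC untreated, mESC with CHIR, and mESC with CHIR and PD, with 1 array each. All of them go back to EB3, a single line of mESC. EpiLC had been kept for 2 days in N2B27, a serum-free medium, to which Activin A (20 ng/ml) and bFGF (12 ng/ml) had been added, on serum-coated dishes, whereas mESC were kept in N2B27 with LIF and BMP4. Cell state and the factors in the medium thus differ together and cannot be told apart, and the labels do not say when the inhibitors were added relative to the induction. In bulk RNA, fewer cells of a type and less RNA per cell cannot be told apart either.

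mESC resemble the naive epiblast of the embryo before implantation, and EpiLC resemble the epiblast soon after it, a state called formative, in which cells become able to respond to the signals that induce germ layers and germ cells. In mESC, LIF acts through the receptors Lifr and gp130 and the factor STAT3, and BMP4 acts through SMAD factors on the Id genes; together with the factors Esrrb, Klf4, Tfcp2l1 and Nanog they hold the naive state. Activin signals through SMAD2 and SMAD3 and FGF through ERK, and both drive the passage to the formative state. CHIR raises beta-catenin, which relieves repression by Tcf7l1 in mESC and induces primitive streak genes in later epiblast, and PD lowers ERK activity, so that the treatments act on pathways that also separate the states.

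The values are normalized intensities on a linear scale, with a lowest value of 16 and a median of 60.6 to 65.2 on the 6 arrays. In what follows the 3 intensities of a state stand in the order untreated, CHIR, CHIR and PD, and a difference is that of EpiLC minus mESC on the log2 scale, as the mean of the 3 pairs with its standard error (SE). Since no group has a replicate, the error is the scatter of the 3 pair differences about their mean, which limma steadies with information from all genes. A gene whose state difference depends on the treatment therefore gets a large error. Nothing in the labels says that the cultures were independent, so the p-values cover the spread between these 6 arrays only.

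Of 22180 genes, 1841 (8.3%) differed between the states over the 3 treatments at a limma adjusted p below 0.05. In EpiLC 921 (4.15%) rose and 920 (4.15%) fell. Rises were smaller than falls, with a median difference of 0.83 among the genes that rose and -1.0 among those that fell, against -0.02 over all genes. Without limma's moderation of the error 0 genes passed the adjusted threshold, with 3524 at an unadjusted p below 0.05 against 5317 with it, so every call rests on that moderation. A stricter set differed at least 2-fold the same way in each of the 3 pairs; it held 145 genes higher in EpiLC (0.654%) and 287 lower (1.29%), and all of them also passed the limma threshold. Of the 510 genes (2.3%) at least 2-fold lower in untreated EpiLC, 56.3% were so in all 3 pairs, while of the 325 (1.47%) at least 2-fold higher, 44.6% were. Against mESC with the same treatment, 544 genes (2.45%) were at least 2-fold higher in EpiLC in the CHIR pair and 729 (3.29%) in the CHIR and PD pair. Those at least 2-fold lower in these pairs numbered 583 (2.63%) and 689 (3.11%). In exactly 1 pair, 623 genes passed 2-fold upward and 431 downward. Across all genes, as a description of pairs that have no array in common, the differences of the untreated and the CHIR pair had a Pearson r of 0.66, those of the untreated and the CHIR and PD pair 0.59, and those of the CHIR and the CHIR and PD pair 0.71.

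**Figure D1:**
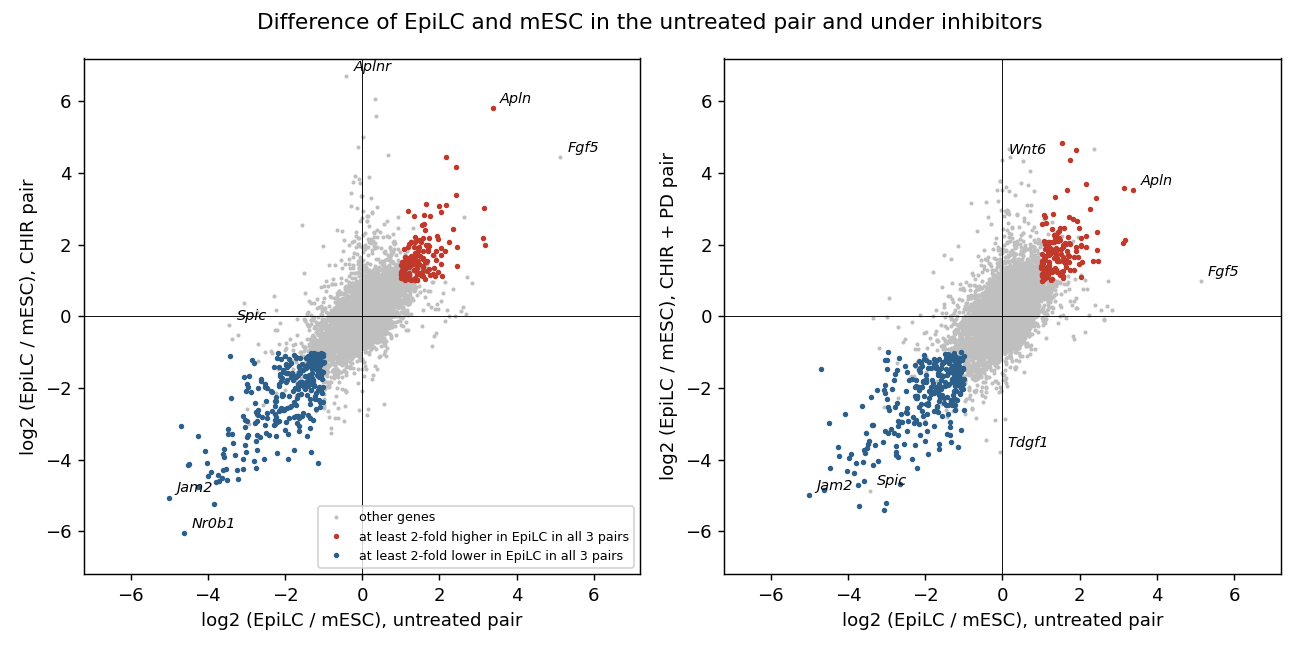
Each point is 1 of 22180 genes, with the log2 difference of EpiLC minus mESC in the untreated pair on the x axis and in the CHIR pair (left) or the CHIR and PD pair (right) on the y axis. The 145 genes at least 2-fold higher in all 3 pairs (red) and the 287 at least 2-fold lower (blue) lie at upper right and lower left by the rule that chose them. Aplnr, Wnt6 and Tdgf1 differ in 1 or more inhibitor pairs and not in the untreated pair.

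The labels were checked against marker genes. All 9 markers of naive mESC measured (Klf2, Klf4, Klf5, Esrrb, Tbx3, Tfcp2l1, Zfp42, Prdm14 and Pecam1) fell in EpiLC, and their median intensity was 43.0, 44.9 and 56.2 in EpiLC, against 574, 983 and 1170 in mESC. Markers of EpiLC were less uniform. Pou3f1 and Cdh2 rose, 4 of the 6 were at least 2-fold higher in the untreated pair, and the median intensity of the 6 was 743, 488 and 145 in EpiLC, against 128, 75.3 and 69.1 in mESC. Fgf5, a growth factor of the post-implantation epiblast, read 1258, 770.0 and 39.4 in EpiLC, against 36.0, 35.6 and 19.9 in mESC, and its difference of 3.51 narrowly missed the threshold (limma SE 0.76, adjusted p = 0.0506). No EpiLC array was below an mESC array, but with CHIR and PD both states were under the median intensity of their array. Otx2, a transcription factor of the formative epiblast, read 1025, 309.7 and 59.0 in EpiLC, against 410.5, 56.2 and 40.2 in mESC, and its difference of 1.45 (limma SE 0.34, adjusted p = 0.0632) also missed the threshold. The 3 cultures labelled EpiLC thus shared the low naive markers, while Fgf5 and Otx2 were high without inhibitors and low with both.

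A large difference that was nearly equal in the 3 pairs was that of Jam2, a junctional adhesion molecule of the immunoglobulin family. It read 25.3, 25.6 and 49.1 in EpiLC, against 811, 855 and 1557 in mESC. The pair differences were -5.00, -5.06 and -4.99, and Jam2 fell by 5.02 (limma SE 0.10, adjusted p = 0.000185) with all EpiLC arrays below all mESC arrays. Its untreated and CHIR intensities in EpiLC lay under the lower quartiles of those arrays, and with 4 or 64 set in place of the lowest intensity of 16 the difference was -5.75 or -3.74, so its size is uncertain while its direction held. The intensity with both inhibitors was the highest of the 3 in either state. The nuclear receptor Esrrb read 22.5, 21.4 and 33.7 in EpiLC, against 357, 467 and 524 in mESC, and fell by 4.13 (limma SE 0.14, adjusted p = 0.000444). Over the alternative settings of the processing its difference ranged from -5.06 to -2.74, so its size is uncertain too. For Klf4, a zinc finger factor induced by LIF, the intensities were 36.0, 41.4 and 51.6 in EpiLC, against 399, 404 and 572 in mESC, and the fall of 3.41 (limma SE 0.10, adjusted p = 0.000378) varied by little between the pairs, at -3.47, -3.29 and -3.47.

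Esrrb and Klf4 belong to the naive pluripotency network, and Jam2 to the list of cadherin and junction genes. Of the 14 naive pluripotency genes measured, 13 fell and 0 rose, against 4.15% of all genes in either direction, and the same 13 were at least 2-fold lower in every pair. The median of the list was -3.69, and it was -3.62, -3.83 and -3.56 in the untreated, CHIR, and CHIR and PD pairs. Nanog, which passed no threshold, was neither on this list nor among the naive markers above. List members were chosen with earlier results of these data known, so the share called depends on that choice. Nr0b1, an orphan receptor encoded on the X chromosome, read 63.5, 23.3 and 51.4 in EpiLC, against 1559.8, 1559 and 1467 in mESC, and fell by 5.17 (limma SE 0.28, adjusted p = 0.00161), with -5.74 or -4.09 when 4 or 64 stood in place of the lowest intensity. For the orphan receptor Nr5a2, which can bind the enhancer of Pou5f1, the values were 44.7, 31.0 and 46.1 in EpiLC, against 673, 627 and 665 in mESC, and the AKT cofactor Tcl1 read 33.4, 24.1 and 28.9 in EpiLC, against 405, 469 and 483 in mESC. The F-box gene Fbxo15 read 56.6, 84.6 and 76.0 in EpiLC, against 1074, 851 and 1134 in mESC. No EpiLC array reached the level of any mESC array for these genes. The Kruppel-like factors Klf2 and Klf5 were less even. Klf2 read 117, 67.4 and 307 in EpiLC, against 1454, 1540.3 and 1732 in mESC, highest in EpiLC with both inhibitors, and fell by 3.55 (limma SE 0.36, adjusted p = 0.00613). Klf5 read 459.6, 805 and 393 in EpiLC, against 1825, 1728 and 1387 in mESC, highest in EpiLC with CHIR, and fell by 1.64 (limma SE 0.19, adjusted p = 0.00861). The homeobox gene Gbx2 was the exception; it read 121, 368 and 366 in EpiLC, against 265, 424 and 261 in mESC, and its pair differences of -1.14, -0.20 and 0.49 did not share a sign. The limma call held with any 1 pair of arrays left out for Jam2, Esrrb, Klf4, Nr0b1, Nr5a2, Tcl1, Fbxo15, Klf2 and Klf5.

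**Figure D2:**
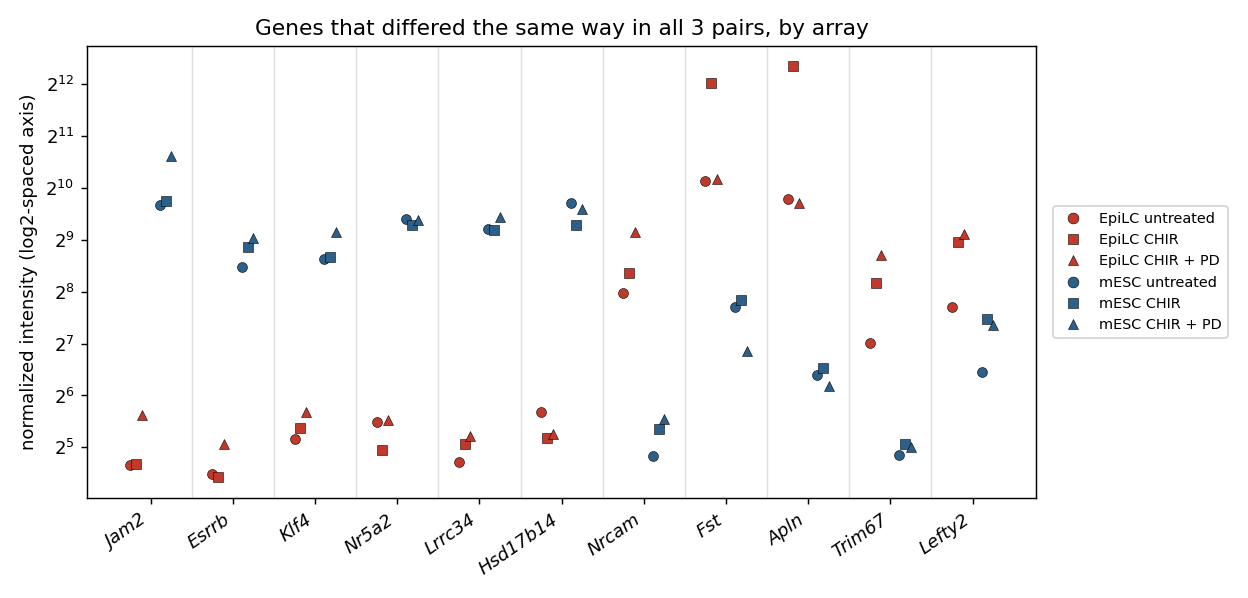
Normalized intensity on a log2-spaced axis of 11 genes on each of the 6 arrays, with EpiLC in red left of mESC in blue and the treatment given by the shape of the point. For every gene shown the 3 arrays of the states do not overlap, and Jam2 keeps its distance of about 5 on the log2 scale while its level is highest with CHIR and PD in both states.

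Several of the largest falls lay outside that network. Gata2, a zinc finger factor of trophoblast and blood, read 50.5, 44.8 and 57.3 in EpiLC, against 658, 1078 and 2239 in mESC, and its distance grew over the treatments, at -3.70, -4.59 and -5.29. Aqp3, a channel for water and glycerol, read 58.8, 70.0 and 64.5 in EpiLC, against 496, 1334 and 2738 in mESC; the EpiLC arrays hardly differed, and the mESC arrays were brighter with each inhibitor added. The phosphodiesterase Pde8a read 125, 115 and 128 in EpiLC, against 1518, 1664 and 3060.2 in mESC, the steroid dehydrogenase Hsd17b14 read 51.3, 36.4 and 38.4 in EpiLC, against 833, 626 and 769.6 in mESC, and the lysosomal membrane gene Laptm5 read 44.5, 26.5 and 36.4 in EpiLC, against 618, 657 and 620.4 in mESC. For the myosin light chain gene Mylpf the intensities were 21.0, 18.3 and 24.9 in EpiLC, against 300.3, 686 and 517 in mESC. Its difference ranged from -5.68 to -2.92 over the alternative settings. Lrrc34, a leucine-rich repeat gene, read 26.4, 33.6 and 37.0 in EpiLC, against 588, 583 and 692 in mESC, and Morc1, required in mouse for silencing of transposons in the male germ line, read 55.0, 24.2 and 33.8 in EpiLC, against 626, 579 and 429 in mESC. All 8 were without overlap between the states, as were 3198 genes (14.4%) lower in EpiLC and 2749 (12.4%) higher. In limma Gata2 fell by 4.53 (limma SE 0.29, adjusted p = 0.00206), Aqp3 fell by 4.25 (limma SE 0.41, adjusted p = 0.00557), and Hsd17b14 fell by 4.15 (limma SE 0.11, adjusted p = 0.000378). The genes with the smallest errors among the 2-fold falls were, besides Jam2, the autophagy kinase Ulk1, the germ cell gene Tex14, Noxred1 and Zscan4b. Ulk1 read 202, 182 and 221 in EpiLC, against 941, 876 and 1040.5 in mESC, with pair differences of -2.22, -2.26 and -2.23, so that all 3 pairs gave nearly the same difference.

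Counts of calls in the lists that follow are to be read against the same 4.15% of all genes in either direction. Signals of the stem cell medium were followed through their receptors and targets. In the LIF-STAT3 pathway 7 of 15 genes fell and 0 rose, with a median of -1.09. The falls covered both receptor chains, the signal carrier and its targets. Lifr, which binds LIF, read 142, 121 and 66.5 in EpiLC, against 443, 355 and 342 in mESC, and Il6st, which encodes the shared chain gp130, read 268, 399 and 449 in EpiLC, against 814, 789 and 1093 in mESC. The factor Stat3 read 257, 416 and 451 in EpiLC, against 1007, 1044 and 1040.3 in mESC and fell by 1.501 (limma SE 0.17, adjusted p = 0.00845). Its 3 mESC arrays hardly differed, and the EpiLC arrays with inhibitors were the brighter ones of their state. Socs3, the feedback inhibitor that STAT3 induces, read 32.1, 39.7 and 44.0 in EpiLC, against 140.3, 126 and 120.0 in mESC. Bcl3, a partner of NF-kB factors and a target of STAT3, read 34.7, 37.6 and 86.6 in EpiLC, against 786, 661 and 681 in mESC, and fell by 3.87 (limma SE 0.29, adjusted p = 0.00313). The kinase gene Pim3 fell by 1.16 (limma SE 0.12, adjusted p = 0.00631), whereas the intracellular kinase gene Jak1 and the inhibitor Socs1 passed no threshold.

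Among 19 genes of the BMP pathway 5 fell and 1 rose, with a median of -0.04. The falls were targets, not receptors. Id2, an inhibitor of bHLH factors, read 248, 82.2 and 40.4 in EpiLC, against 776, 583 and 474 in mESC, and its distance widened with each inhibitor. Id1 went the other way. It read 57.3, 119 and 144 in EpiLC, against 1480.2, 989 and 399 in mESC, brighter with inhibitors in EpiLC and dimmer with them in mESC, and the pair differences were -4.69, -3.06 and -1.47. Id3 read 63.1, 70.1 and 190.3 in EpiLC, against 503, 425 and 192 in mESC; its states met with CHIR and PD, and its difference of -1.87 missed the threshold (limma adjusted p = 0.112). The homeobox target Msx2 fell by 2.35 (limma SE 0.23, adjusted p = 0.00577) and Id4 fell by 1.95 (limma SE 0.28, adjusted p = 0.0161). The type 2 receptor Bmpr2 rose by 0.99 (limma SE 0.13, adjusted p = 0.0122), and the ligand Bmp4 read 146, 206 and 285 in EpiLC, against 1107, 1670.2 and 200.2 in mESC, high only on the mESC arrays without PD. For Bcl3, Stat3, Lifr, Il6st, Socs3, Pim3, Id2, Id4 and Msx2 the limma call held in every fit without 1 pair of arrays. In fits without 1 pair the limma adjusted p, in parentheses, was past 0.05 for Id1 (0.0544) and Bmpr2 (0.0529) without the untreated pair.

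General pluripotency factors differed less, and their differences depended more on treatment. Of 17 core genes 8 fell and 1 rose, with a median of -0.79 and pair medians of -0.51, -0.74 and -1.10. Sox2 read 599, 106 and 302 in EpiLC, against 1514, 1459.6 and 1584 in mESC, without overlap, and its pair differences were -1.34, -3.78 and -2.39. The ligand Fgf4, which SOX2 and OCT4 activate together, read 508, 53.7 and 119 in EpiLC, against 1125, 909.5 and 1482 in mESC, with pair differences of -1.15, -4.08 and -3.64. The 3 mESC arrays of either gene lay close together, and the EpiLC array with CHIR was the lowest. Dppa2 and Dppa4, neighbouring chromatin factors, fell by 2.12 (limma SE 0.43, adjusted p = 0.0413) and by 1.34 (limma SE 0.19, adjusted p = 0.0161). Nanog read 709, 496 and 2498 in EpiLC, against 2118, 2179.6 and 2969.5 in mESC, near the mESC level in EpiLC with both inhibitors, and passed no threshold (limma adjusted p = 0.0799). Pou5f1, which encodes OCT4, read 1289.5, 881 and 558 in EpiLC, against 1342, 1234 and 1121 in mESC, and differed by -0.52 (limma adjusted p = 0.173). The Nodal co-receptor Tdgf1 read 2873, 2354 and 156 in EpiLC, against 2979, 2341 and 2171 in mESC, a difference present in the CHIR and PD pair alone. Lin28b, a blocker of let-7 maturation, was the 1 core gene that rose. It read 239, 201 and 216 in EpiLC, against 103, 105 and 59.6 in mESC, and rose by 1.33 (limma SE 0.19, adjusted p = 0.0157). With 1 pair of arrays left out at a time, Dppa4 kept the limma call. A fit without 1 pair ended the limma call (highest adjusted p in parentheses) of Fgf4 (0.0823), Sox2 (0.0558) and Dppa2 (0.105) without the CHIR+PD pair, and that of Lin28b (0.0561) without the untreated pair. Other settings ended it too. The limma adjusted p was 0.102 for Fgf4 and 0.087 for Sox2 with trend and robust moderation, and 0.18 for Dppa2 without a treatment term.

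Genes of DNA methylation included falls on both sides of the process. The dioxygenases Tet1 and Tet2, which oxidise 5-methylcytosine, both fell. Tet2 read 46.6, 73.1 and 59.7 in EpiLC, against 487, 352 and 493 in mESC and Tet1 read 909, 296 and 339 in EpiLC, against 1852, 1536 and 1389 in mESC. Dnmt3l, the cofactor of the new methyltransferases, read 131, 36.6 and 42.5 in EpiLC, against 875, 484 and 119 in mESC, dimmer with inhibitors in both states, and Zfp57, which guards methylation at imprinted loci, read 341, 420.4 and 292 in EpiLC, against 1942, 1545 and 1248 in mESC. The methyltransferase Dnmt3a rose by 0.97 (limma SE 0.15, adjusted p = 0.0187), and the maintenance enzyme Dnmt1 and its partner Uhrf1 passed no threshold. Dnmt3b read 4847, 1279.5 and 788 in EpiLC, against 2327, 1289 and 817 in mESC, a difference of the untreated pair alone. In all 4 of 14 measured genes of the list fell and 1 rose, with a median of -0.40. Of 18 histone modifiers 5 fell and 1 rose (median -0.23). The Polycomb subunit Eed read 689, 508 and 489 in EpiLC, against 1363, 1334 and 1171 in mESC, and its partners Mtf2 and Jarid2 fell by 0.85 (limma SE 0.12, adjusted p = 0.014) and by 0.76 (limma SE 0.10, adjusted p = 0.0126), while the catalytic subunit Ezh2 passed no threshold. The remodeller Chd7 rose by 1.11 (limma SE 0.19, adjusted p = 0.0245). The limma call held with any 1 pair of arrays left out for Tet1, Tet2, Zfp57, Eed and Mtf2. Leaving out 1 pair ended the limma call (highest adjusted p in parentheses) of Dnmt3l (0.0742), Dnmt3a (0.073) and Chd7 (0.0513) without the untreated pair, and that of Jarid2 (0.0601) without the CHIR pair.

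Germline genes are often silenced by promoter methylation after implantation, and 6 of 18 measured fell, with 0 that rose and a median of -0.41. The piRNA factor Tdrd12 read 149, 56.3 and 65.2 in EpiLC, against 429, 364 and 347 in mESC, and the X-linked homeobox gene Rhox5 read 191, 89.0 and 82.6 in EpiLC, against 395, 396 and 338 in mESC. The germ cell factor Sohlh2 fell by 1.75 (limma SE 0.32, adjusted p = 0.0315). In each of these 3 the EpiLC arrays with inhibitors were lower than the untreated EpiLC array, and the mESC arrays moved little. Dazl, an RNA-binding protein of germ cells, had the same order at 97.6, 30.9 and 26.4 in EpiLC, against 130.2, 133 and 114 in mESC, and narrowly missed the threshold (limma adjusted p = 0.0555). Of 10 genes of the 2-cell-like list 1 fell, Zscan4d, by 1.23 (limma SE 0.17, adjusted p = 0.0133), and the list had a median of -0.06. Zscan4 genes are near-identical copies whose probes may read each other, so they are uncertain one by one. Zscan4b fell by 1.25 (limma SE 0.10, adjusted p = 0.00368) as well, while Zscan4c passed no threshold, at 93.4, 78.2 and 101 in EpiLC, against 246, 94.1 and 68.5 in mESC. For Tdrd12, Rhox5 and Zscan4d the limma call held in every fit without 1 pair of arrays. In fits without 1 pair the limma adjusted p, in parentheses, was past 0.05 for Sohlh2 (0.0825) without the CHIR+PD pair.

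Of 14 trophoblast regulators measured, 7 fell and 0 rose, with 6 at least 2-fold lower in every pair and a median of -0.71. Tfap2c, an AP-2 factor that naive cells also use, read 23.7, 29.1 and 28.4 in EpiLC, against 264, 256 and 338 in mESC and fell by 3.40 (limma SE 0.12, adjusted p = 0.000556). Its difference ranged from -4.19 to -2.15 over the alternative settings. The bHLH factors Hand1 and Ascl2 read 61.3, 39.3 and 52.9 in EpiLC, against 399, 243 and 442 in mESC, and 72.4, 62.3 and 26.1 in EpiLC, against 293, 181 and 292 in mESC. Tfap2a and the Hippo effector Tead4 fell by 1.53 (limma SE 0.14, adjusted p = 0.00503) and by 1.43 (limma SE 0.11, adjusted p = 0.00311). Eomes, a T-box factor of trophoblast and primitive streak, lay the other way, at 345, 389.9 and 33.7 in EpiLC, against 55.5, 57.0 and 35.5 in mESC, with pair differences of 2.63, 2.77 and -0.07, and passed no threshold. Simple keratins did not follow, and Krt8, Krt18 and Krt19 passed no threshold. Summed over the 14 genes the intensity was 1761 to 4786 in EpiLC and 3830.0 to 7656 in mESC, so the sums overlap. With 1 pair of arrays left out at a time, Gata2, Tfap2c, Hand1, Tfap2a and Tead4 kept the limma call. A fit without 1 pair ended the limma call (highest adjusted p in parentheses) of Ascl2 (0.0621) without the untreated pair.

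On the side of gain, Apln led. It encodes apelin, a secreted ligand, and it read 878, 5177 and 842 in EpiLC, against 84.2, 92.3 and 73.0 in mESC, with pair differences of 3.38, 5.81 and 3.53. Fst, the secreted antagonist of Activin, read 1124, 4127 and 1152 in EpiLC, against 209, 228 and 117 in mESC, and rose by 3.30 (limma SE 0.32, adjusted p = 0.00548). Both were highest in EpiLC with CHIR, and the mESC arrays of both genes lay closer together. Nrcam, a neuronal cell adhesion molecule, varied less between the pairs. It read 251, 330.5 and 565 in EpiLC, against 28.4, 40.7 and 47.1 in mESC, with differences of 3.14, 3.02 and 3.59, and rose by 3.25 (limma SE 0.14, adjusted p = 0.000869), with 3.77 or 2.25 when 4 or 64 stood in place of the lowest intensity. Trim67, a ubiquitin ligase known from neurons, read 129, 289 and 416 in EpiLC, against 28.8, 33.6 and 32.4 in mESC. The guidance ligand Slit3 read 332, 940.5 and 327 in EpiLC, against 106, 108 and 80.5 in mESC and the LIM domain gene Limd2 read 947, 1029 and 918 in EpiLC, against 249, 219 and 144 in mESC, which hardly differed among the EpiLC arrays. Ppp4r4, a phosphatase subunit, read 337, 628 and 411 in EpiLC, against 70.5, 148 and 51.0 in mESC. For the sialyltransferase St6gal2 and the matrix protease Mmp25 the untreated array of either state was the brightest; St6gal2 read 793, 325 and 128 in EpiLC, against 91.5, 71.7 and 30.9 in mESC, and Mmp25 read 1104, 231 and 241 in EpiLC, against 122, 57.8 and 55.3 in mESC.

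Other large rises shared their sign in all 3 pairs while their levels in EpiLC differed between treatments. Dll3, a Notch ligand of the presomitic mesoderm, read 209.7, 1178 and 231 in EpiLC, against 46.5, 53.8 and 48.8 in mESC, and Mixl1, a homeobox factor of the primitive streak, read 179, 3378 and 172 in EpiLC, against 33.0, 321 and 33.6 in mESC. Both were highest in EpiLC with CHIR, and Mixl1 was also highest with CHIR among the mESC arrays, so the untreated EpiLC array and that with CHIR and PD lay below mESC with CHIR. Without a term for treatment the limma adjusted p of Mixl1 was 0.303. Mfap4, a matrix glycoprotein, read 125, 141 and 654 in EpiLC, against 42.8, 24.2 and 22.9 in mESC, Actc1, the cardiac actin, read 335, 298 and 1738 in EpiLC, against 89.0, 83.7 and 69.6 in mESC, and the streak ligand Fgf8 read 91.3, 286 and 533 in EpiLC, against 27.2, 41.3 and 26.1 in mESC; these were highest in EpiLC with both inhibitors. The limma call held with any 1 pair of arrays left out for Apln, Fst, Nrcam, Trim67, Slit3, Limd2, Ppp4r4, Dll3, Mixl1, Mfap4 and Fgf8. It did not hold in every other setting. With 64 in place of the lowest intensity the limma adjusted p was 0.0619 for Fgf8 and 0.0645 for Dll3. With trend and robust moderation it was 0.114 for Mfap4. Leaving out 1 pair ended the limma call (highest adjusted p in parentheses) of Actc1 (0.0749) without the untreated pair. The most even 2-fold rises, by SE, were those of Ecpas, Pclaf, Map3k15, Sh3gl3 and Kcnj3. Pclaf, a factor bound to the replication clamp PCNA, read 358, 329 and 252 in EpiLC, against 120.4, 106 and 86.3 in mESC, and the potassium channel gene Kcnj3 read 227, 140.0 and 96.2 in EpiLC, against 55.3, 37.2 and 24.5 in mESC, where both states lost intensity with inhibitors and the pair differences stayed at 2.04, 1.91 and 1.97.

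Of 14 formative genes 6 rose and 1 fell, with a median of 1.07. Pou3f1, a POU factor of the epiblast, read 538, 123 and 145 in EpiLC, against 122, 63.7 and 71.8 in mESC, and the zinc finger factor Zic2 read 868, 741 and 659 in EpiLC, against 466, 346 and 224 in mESC, with pair differences of 0.90, 1.10 and 1.56. Lef1, a partner of beta-catenin, read 1233, 1448 and 700.4 in EpiLC, against 435, 627 and 159 in mESC and rose by 1.62 (limma SE 0.19, adjusted p = 0.00901). Sall2, named after its values had been seen like other list members here, rose by 1.08 (limma SE 0.18, adjusted p = 0.0251). Tcf15, a bHLH factor that primes mESC for differentiation, fell by 1.36 (limma SE 0.21, adjusted p = 0.019). Of 24 Wnt pathway genes 4 rose and 2 fell, with a median of 0.36. The ligands Wnt3 and Wnt8a read 199, 322 and 404 in EpiLC, against 93.8, 87.3 and 56.9 in mESC, and 234, 404 and 525 in EpiLC, against 73.0, 138 and 45.3 in mESC. Among the receptors Fzd8 rose by 0.80 (limma SE 0.17, adjusted p = 0.0453), and Fzd5 fell by 1.94 (limma SE 0.12, adjusted p = 0.00195), at 147, 101 and 95.9 in EpiLC, against 490.1, 399 and 409 in mESC. The feedback inhibitor Nkd1 read 75.03, 344 and 742 in EpiLC, against 46.1, 74.1 and 44.9 in mESC, a difference that grew with each inhibitor and passed no threshold (limma adjusted p = 0.0714). For Pou3f1, Zic2, Lef1, Sall2, Tcf15, Wnt3 and Fzd5 the limma call held in every fit without 1 pair of arrays. In fits without 1 pair the limma adjusted p, in parentheses, was past 0.05 for Wnt8a (0.0634) and Fzd8 (0.12) without the untreated pair.

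Activin, present in the EpiLC medium, acts through Nodal-type receptors, and 4 of the 22 measured genes of this pathway rose while 2 fell (median 0.37). Lefty2, a secreted Nodal antagonist, read 209, 495 and 556 in EpiLC, against 87.1, 178 and 163 in mESC. Both states were brighter with inhibitors, the arrays did not overlap, and it rose by 1.501 (limma SE 0.13, adjusted p = 0.00474). Its relative Lefty1 read 408, 240.4 and 3548 in EpiLC, against 79.2, 140.2 and 139.8 in mESC, with pair differences of 2.36, 0.78 and 4.67, and missed the threshold (limma adjusted p = 0.0786). The ligand Nodal read 398, 374 and 579 in EpiLC, against 273, 171 and 241 in mESC, and the type 2 receptor Acvr2a read 245, 334 and 284 in EpiLC, against 158, 169 and 189 in mESC; both rose, by 0.98 (limma SE 0.16, adjusted p = 0.0237) and by 0.73 (limma SE 0.12, adjusted p = 0.0245). On the other side Pcsk6, a protease that processes the Nodal precursor, fell by 1.45 (limma SE 0.26, adjusted p = 0.0289), and the ligand Gdf3 fell by 2.21 (limma SE 0.44, adjusted p = 0.0399), at 440.0, 72.0 and 122 in EpiLC, against 767, 687 and 728 in mESC. With 1 pair of arrays left out at a time, Lefty2 kept the limma call. A fit without 1 pair ended the limma call (highest adjusted p in parentheses) of Nodal (0.0775), Acvr2a (0.122) and Pcsk6 (0.0637) without the CHIR pair, and that of Gdf3 (0.103) without the CHIR+PD pair.

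In the FGF and ERK pathway 3 of 21 genes rose and 4 fell, with a median of 0.00. All genes had 4.15% of calls in each direction. PD blocks the kinase above ERK, and Spry4, a feedback inhibitor induced by ERK, read 346, 338 and 22.3 in EpiLC, against 610.5, 608 and 36.2 in mESC. It was low with PD in both states, and its pair differences were -0.82, -0.85 and -0.70. Dusp4, a phosphatase of ERK, read 665, 930.2 and 101 in EpiLC, against 401, 552 and 51.5 in mESC, with the opposite sign and pair differences of 0.73, 0.75 and 0.97. Dusp6 read 249, 302 and 53.8 in EpiLC, against 175, 177 and 37.5 in mESC, and rose by 0.60 (limma SE 0.11, adjusted p = 0.0307). With CHIR and PD, Spry4 and Dusp6 were under the array medians in both states, where a difference is uncertain. Over the 3 pairs Dusp4 and Dusp6 rose and Spry4 fell. Egr1, an immediate early gene, read 308, 276 and 32.1 in EpiLC, against 109, 87.6 and 25.7 in mESC; its difference was 0.32 in the CHIR and PD pair, and it passed no threshold (limma adjusted p = 0.0588). The receptor Fgfr2 fell by 0.84 (limma SE 0.13, adjusted p = 0.0202). The limma call held with any 1 pair of arrays left out for Dusp4. Leaving out 1 pair ended the limma call (highest adjusted p in parentheses) of Spry4 (0.0627), Dusp6 (0.19) and Fgfr2 (0.0659) without the CHIR pair.

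**Figure D3:**
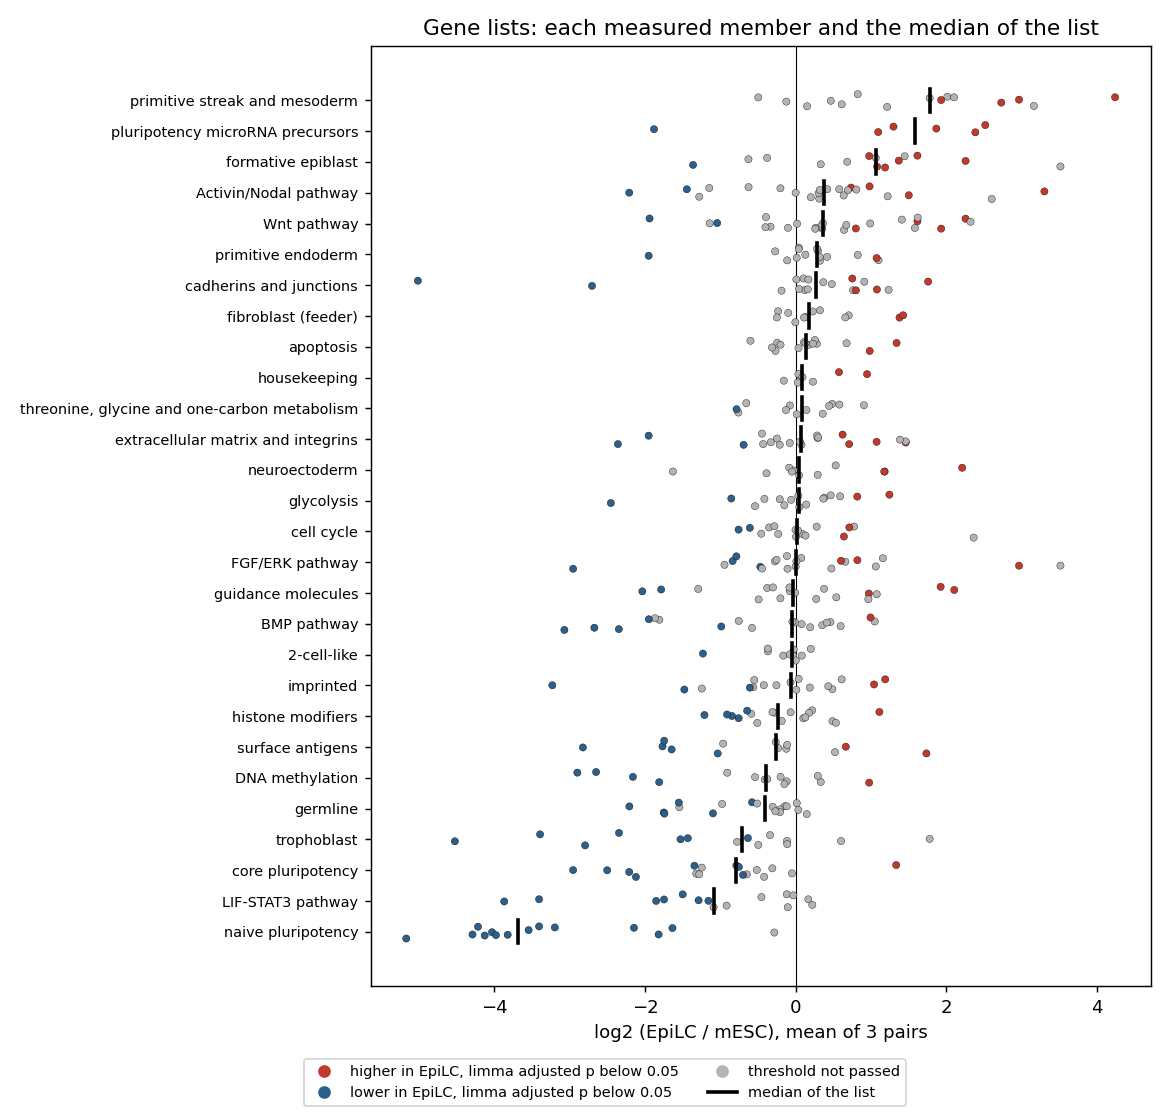
Log2 difference of EpiLC minus mESC, as the mean of 3 pairs, for every measured gene of the 28 lists, 1 list per line in order of its median (bar). Naive pluripotency genes lie at a median of -3.69 with 13 of 14 called lower (blue), and primitive streak genes at 1.78 with 4 of 15 called higher (red) and 11 without a call (grey).

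MicroRNA genes of 2 families known from pluripotent cells differed in opposite directions. Mir302a, Mir302b, Mir302c, Mir302d and Mir367 lie together within Larp7 on chromosome 3, and all 5 rose. Mir290a, the only gene of the Mir290 to Mir295 family measured, lies on chromosome 7 and fell. Mature miR-302 and miR-290 molecules are known to share target rules through their seed, the bases 2 to 8 that pair with messenger RNA. Near-identical seeds lie on the 3p arms of miR-302b and miR-302d, from genes that rose, and of miR-290a, from the gene that fell. These and other sequences of the 2 families and miR-367 (RefSeq, GRCm38.p6, 5′ to 3′, seed in capitals) are shown for that reason. No sequence of the 3p arm of miR-302a was found.
mmu-miR-302b-3p: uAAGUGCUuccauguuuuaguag
mmu-miR-302d-3p: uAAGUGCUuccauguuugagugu
mmu-miR-302c-3p: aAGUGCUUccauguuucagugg
mmu-miR-290a-3p: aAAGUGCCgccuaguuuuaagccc
mmu-miR-367-3p: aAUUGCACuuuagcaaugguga
mmu-miR-302b-5p: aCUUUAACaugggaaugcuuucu
mmu-miR-302a-5p: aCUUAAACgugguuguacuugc

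The 3p arms of miR-302b and miR-302d share 1 seed, AAGUGCU, and that of miR-290a, AAGUGCC, has the same first 6 letters. The seed of miR-302c-3p, as the table gives that arm, is AGUGCUU, the same run of letters set off by 1 base, and miR-367-3p has an unrelated seed, AUUGCAC. The 5p arms, as the 2 shown, have seeds of another kind, CUUUAAC for miR-302b and CUUAAAC for miR-302a. On the plus strand of chromosome 3 the arms lie at chr3:127545275-127545297 (miR-302b-3p), chr3:127545406-127545427 (miR-302c-3p), chr3:127545665-127545687 (miR-302d-3p) and chr3:127545779-127545800 (miR-367-3p), and miR-290a-3p lies at chr7:3218674-3218697, also on the plus strand. The array reads RNA of the gene that holds the hairpin and cannot tell the arms apart or measure the mature molecule.

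Mir302a read 333, 193 and 144 in EpiLC, against 83.9, 22.8 and 25.8 in mESC, and rose by 2.52 (limma SE 0.21, adjusted p = 0.00438). Mir302c and Mir302d read 210.0, 163 and 108 in EpiLC, against 51.1, 21.5 and 23.5 in mESC, and 198, 145 and 90.1 in EpiLC, against 60.0, 31.6 and 28.0 in mESC. All 3 had the same order, brightest in untreated cells of either state and dimmer with inhibitors. Their mESC values with inhibitors lay under the lower quartiles of those arrays, so the size of each difference is uncertain. Over the alternative settings it ranged from 1.56 to 3.16 for Mir302a, 1.37 to 3.13 for Mir302c and 1.11 to 2.33 for Mir302d. Mir367 and Mir302b were dim, and rose by 1.30 (limma SE 0.12, adjusted p = 0.00555) and by 1.09 (limma SE 0.11, adjusted p = 0.00607); 4 of the 5 were at least 2-fold higher in every pair. Larp7, whose protein stabilises the small nuclear RNA 7SK, spans these genes by position, and its strand was not compared with theirs. It read 817, 853 and 699 in EpiLC, against 596, 551 and 603 in mESC, and its difference of 0.43 passed no threshold (limma adjusted p = 0.0944). Whether they are made from RNA of Larp7 was not tested. Mir290a read 384, 92.8 and 115 in EpiLC, against 699, 647 and 455 in mESC, and fell by 1.88 (limma SE 0.35, adjusted p = 0.0312), least in the untreated pair.

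A second group of microRNA genes fell together with the gene that spans it. Sfmbt2, a Polycomb-related gene on chromosome 2 that is imprinted in mouse, holds in an intron a large block of microRNA genes of the Mir466, Mir467 and Mir669 families. Sfmbt2 read 189, 185 and 297 in EpiLC, against 656, 779 and 1083 in mESC, and fell by 1.91 (limma SE 0.11, adjusted p = 0.00176). Of 72 microRNA genes annotated within it, 22 were measured, and 18 fell, 0 rose and 4 passed no threshold. All 22 had a difference below 0, from -2.49 to -0.15 with a median of -1.29, and 11 were at least 2-fold lower in every pair. Mir466b-2 read 61.0, 36.9 and 96.9 in EpiLC, against 283, 287 and 473 in mESC, and Mir669k read 169.7, 97.9 and 217 in EpiLC, against 634, 694 and 922 in mESC. In both, EpiLC with CHIR was the lowest array and mESC with both inhibitors the highest. The copies are nearly identical, so their probes may read each other and 22 values are not 22 independent observations. Over all 478 microRNA genes measured, 6 (1.26%) rose and 30 (6.28%) fell, of which 5 lie in Larp7 and 18 in Sfmbt2. For Mir302a, Mir302b, Mir302c, Mir302d, Mir367, Sfmbt2, Mir466b-2 and Mir669k the limma call held in every fit without 1 pair of arrays. In fits without 1 pair the limma adjusted p, in parentheses, was past 0.05 for Mir290a (0.076) without the CHIR+PD pair.

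**Figure D4:**
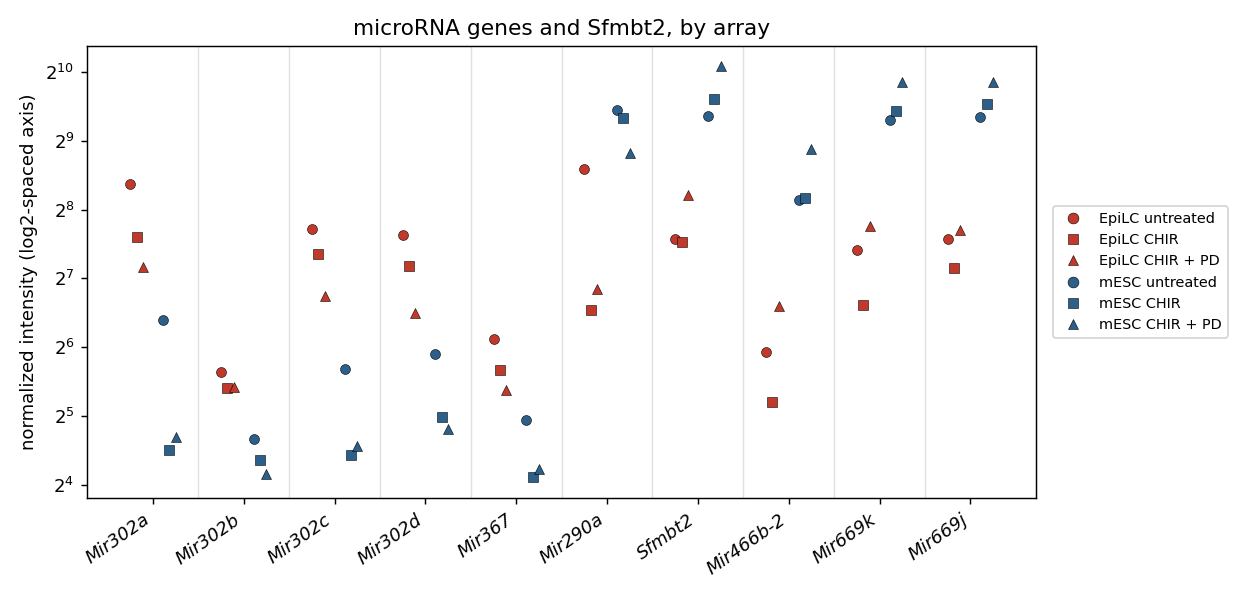
Normalized intensity on a log2-spaced axis of microRNA genes and of Sfmbt2 on each of the 6 arrays, with EpiLC in red left of mESC in blue and the treatment given by the shape of the point. The Mir302 genes and Mir367 are higher in EpiLC in each treatment, while Mir290a, Sfmbt2 and the microRNA genes within it are lower in EpiLC.

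Genes that changed together were also neighbours elsewhere. Along the RefSeq order of 21981 genes that could be placed, 32 runs of 3 or more adjacent measured genes were called the same way, 9 higher and 23 lower in EpiLC, with 113 genes in all. Whether this is more than called genes placed at random would give was not tested. Some runs hold genes of a single family, such as Clca3a1, Clca3a2 and Clca3b, whose probes may read each other. The longest had 13 genes and is the Sfmbt2 block. On chromosome 8 the pluripotency zinc finger gene Zfp42 (also called Rex1) adjoins Triml1 and Triml2, of a family expressed in early embryos. Zfp42 read 327, 253 and 257 in EpiLC, against 2569, 2619 and 2454 in mESC, Triml1 read 46.9, 24.3 and 35.9 in EpiLC, against 327, 401 and 346 in mESC, and Triml2 read 77.6, 34.5 and 43.0 in EpiLC, against 454, 550.0 and 509 in mESC. The 3 genes fell by 3.20, by 3.37 and by 3.37 on the log2 scale. On chromosome 6 Gdf3 and Dppa3, a maternal factor that protects DNA from demethylation, form a run with Apobec1, and Dppa3 read 71.5, 50.6 and 56.9 in EpiLC, against 218, 152 and 274 in mESC. On chromosome 7 Mylpf adjoins Septin1, which read 45.7, 41.6 and 39.5 in EpiLC, against 526, 796 and 378 in mESC. On chromosome 3 Lrrc34 adjoins Lrriq4 and Lrrc31, and Lrrc31 read 22.1, 19.5 and 23.8 in EpiLC, against 149.9, 215 and 327 in mESC. On chromosome 4, 3 runs held zinc finger genes of the Zfp980 and Zfp600 kind. Zfp981 read 211, 50.2 and 82.8 in EpiLC, against 1436, 951 and 1024 in mESC and Zfp600 read 297, 70.7 and 93.0 in EpiLC, against 802, 711 and 899.8 in mESC, and since such genes are close copies their probes may overlap. Among the runs of rises, 3 genes of the Armcx family adjoin on the X chromosome, and Armcx3 read 149.9, 223 and 317 in EpiLC, against 69.8, 76.0 and 85.4 in mESC. With 1 pair of arrays left out at a time, Zfp42, Triml1, Triml2, Dppa3, Septin1, Lrrc31, Zfp981, Zfp600 and Armcx3 kept the limma call. Other members of these runs lost it, so the runs that hold them were not whole in every fit. The limma adjusted p was 0.103 for Gdf3 and 0.0687 for Zfp980 without the CHIR+PD pair, and 0.0759 for Lrriq4 without the untreated pair. Without the CHIR pair it was 0.27 for Apobec1, 0.112 for Tbc1d10b, 0.119 for Zfp984 and 0.0523 for Armcx6. In that fit it was also 0.0725 for Clca3a2, and 0.0716 for Gm13212 and 0.0523 for Smarca5-ps, of the run with Zfp980. In the Sfmbt2 block Mir669e, Mir669b, Mir669a-3 and Mir467d lost the call in 1 or more such fits.

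The promoter of Zfp42 is shown because Zfp42 had 1 of the largest intensities among the naive genes and its promoter holds an octamer, the letters POU factors such as OCT4 bind. The stretch is chr8:43306960-43307259 (RefSeq, GRCm38.p6, minus strand), from 250 bases before the start to 50 after it, with the octamer in capitals.
Zfp42 promoter: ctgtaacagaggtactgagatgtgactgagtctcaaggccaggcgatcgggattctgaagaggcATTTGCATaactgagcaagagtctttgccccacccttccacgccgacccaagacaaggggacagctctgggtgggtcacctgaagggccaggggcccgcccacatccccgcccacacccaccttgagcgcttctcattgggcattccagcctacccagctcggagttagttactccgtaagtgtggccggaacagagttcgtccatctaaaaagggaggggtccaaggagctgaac

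The octamer ATGCAAAT was searched on both strands, and its match ATTTGCAT begins at position -186. In promoters of this length it was found for 2.28% of the genes that rose (702 with a promoter), for 2.84% of those that fell (705) and for 1.87% of 16990 measured genes. A KLF box, GGGTGTGG, was found for 2.85%, 5.96% and 4.27%. An ESRRB box, TCAAGGTCA, was found for 0.285%, 0.284% and 0.365%, and a TCF/LEF box, CTTTGAT, for 2.99%, 2.70% and 3.82%. The differences between these shares were not tested.

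Adhesion and surface genes changed in both directions. Of 18 cadherin and junction genes 4 rose and 2 fell (median 0.27). Cdh2, N-cadherin, read 253, 1554 and 472 in EpiLC, against 134, 227 and 158 in mESC, so untreated EpiLC lay close to mESC with CHIR. Cdh1, E-cadherin, differed by 0.12 and passed no threshold. The tight junction genes Ocln, Cldn6 and Cldn7 rose by 1.08, 0.75 and 0.80 on the log2 scale, and the gap junction gene Gjb5 fell by 2.71, at 30.7, 44.5 and 27.9 in EpiLC, against 226, 191 and 245 in mESC. Of 13 surface antigens 2 rose and 5 fell. Pecam1 read 79.1, 39.8 and 56.2 in EpiLC, against 372, 402 and 422 in mESC, Icam1, the ligand of leukocyte integrins, read 95.5, 121 and 147 in EpiLC, against 420.4, 371 and 431 in mESC, and the stem cell factor receptor Kit read 129, 211 and 137 in EpiLC, against 344, 452 and 903 in mESC, all lower in EpiLC. Prom1, a pentaspan protein of membrane protrusions, read 332, 554 and 428 in EpiLC, against 138, 132 and 117 in mESC and rose by 1.74 (limma SE 0.17, adjusted p = 0.00604).

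In the matrix list of 20 genes 4 rose and 3 fell. The basement membrane gene Nid1 read 95.5, 146 and 131 in EpiLC, against 586, 491 and 862 in mESC. The laminin chains parted, since Lama1 fell by 1.95 (limma SE 0.35, adjusted p = 0.0302) and Lamc1 fell by 0.69 (limma SE 0.10, adjusted p = 0.0169), whereas Lamb1 rose by 1.07 (limma SE 0.19, adjusted p = 0.0289). Tenascin C (Tnc) read 82.5, 62.2 and 112 in EpiLC, against 34.1, 30.6 and 26.4 in mESC, and the integrin chains Itga3 and Itgb1 rose by 0.71 and by 0.62. Of 18 guidance molecules 3 rose and 2 fell. Sema6a, a transmembrane semaphorin, read 944, 827 and 239.9 in EpiLC, against 185, 153 and 82.9 in mESC, and the Eph receptors moved apart, with Epha1 at 896, 1274 and 257 in EpiLC, against 231, 286 and 81.3 in mESC and Epha4 at 65.9, 207 and 156 in EpiLC, against 475, 482 and 642 in mESC. The medians of the surface, matrix and guidance lists were -0.26, 0.07 and -0.04. The limma call held with any 1 pair of arrays left out for Ocln, Gjb5, Pecam1, Icam1, Prom1, Nid1, Sema6a, Epha1 and Epha4. Leaving out 1 pair ended the limma call (highest adjusted p in parentheses) of Cdh2 (0.0675) without the CHIR+PD pair, and that of Cldn6 (0.0582), Kit (0.0758), Lama1 (0.109), Tnc (0.0564) and Itga3 (0.0746) without the untreated pair, and that of Cldn7 (0.0901), Lamc1 (0.0716), Lamb1 (0.0565) and Itgb1 (0.163) without the CHIR pair.

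Metabolic lists moved little as a whole and held single genes with large differences. Of 16 glycolysis genes 2 rose and 2 fell, with a median of 0.04. The phosphofructokinase isoforms parted. Pfkp, the platelet form, read 238, 384 and 161 in EpiLC, against 1468, 1337 and 1238 in mESC, and Pfkm, the muscle form, read 286, 234 and 159.5 in EpiLC, against 133, 132 and 111 in mESC. The lactate exporter Slc16a3 read 925, 882 and 625 in EpiLC, against 430.2, 299 and 298 in mESC, and rose by 1.24 (limma SE 0.14, adjusted p = 0.00745). Of 12 genes of threonine, glycine and one-carbon metabolism, on which mESC rely, 1 fell and 0 rose (median 0.08). That gene was Amt, of the glycine cleavage system, which fell by 0.79 (limma SE 0.14, adjusted p = 0.0289). Of 16 cell cycle genes 2 rose and 2 fell (median 0.02). The CDK inhibitors Cdkn1a and Cdkn1b rose by 0.71 (limma SE 0.14, adjusted p = 0.0399) and by 0.64 (limma SE 0.14, adjusted p = 0.0454), and the third of that family, Cdkn1c, fell by 0.61 (limma SE 0.12, adjusted p = 0.0414). Cdkn1a read 732, 1910.2 and 2764 in EpiLC, against 553, 1163 and 1369 in mESC, brighter with inhibitors in both states, so that the arrays overlapped. Of 15 apoptosis genes 2 rose, Pmaip1 and Bcl2. Pmaip1, which encodes the death-promoting NOXA, read 259.7, 217 and 225 in EpiLC, against 104, 121 and 62.4 in mESC, and Bcl2, which opposes death, read 211, 271 and 186 in EpiLC, against 112, 127 and 97.0 in mESC. For Pfkp, Slc16a3 and Bcl2 the limma call held in every fit without 1 pair of arrays. In fits without 1 pair the limma adjusted p, in parentheses, was past 0.05 for Pfkm (0.0869), Amt (0.112), Cdkn1a (0.136) and Cdkn1b (0.222) without the CHIR pair, and that of Cdkn1c (0.11) and Pmaip1 (0.0675) without the untreated pair.

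Of 17 imprinted genes 2 rose and 3 fell, with a median of -0.07. Igf2, the growth factor expressed from the paternal copy, read 105, 149.7 and 256 in EpiLC, against 1079, 1470.2 and 2104 in mESC. It was brighter with inhibitors in both states, with pair differences of -3.36, -3.30 and -3.04, and fell in EpiLC by 3.23 (limma SE 0.11, adjusted p = 0.000556). Peg10, a gene derived from a retrotransposon, read 398, 687 and 1289.9 in EpiLC, against 1534, 2103 and 2369.8 in mESC. The growth inhibitor Grb10 read 1496, 1738 and 1791 in EpiLC, against 681, 884 and 889.5 in mESC and rose by 1.04 (limma SE 0.10, adjusted p = 0.00575), and Ndn, which encodes necdin, rose by 1.19 (limma SE 0.12, adjusted p = 0.00629). Among 8 housekeeping genes Gapdh, Actb, Hprt, Tbp, Ywhaz and Rplp0 passed no threshold. B2m, the light chain of MHC class I, rose by 0.95 (limma SE 0.14, adjusted p = 0.0164) and Gusb, a lysosomal enzyme, rose by 0.57 (limma SE 0.11, adjusted p = 0.0345). With 1 pair of arrays left out at a time, Igf2, Grb10 and Ndn kept the limma call. A fit without 1 pair ended the limma call (highest adjusted p in parentheses) of Peg10 (0.0517) without the untreated pair, and that of B2m (0.0564) and Gusb (0.192) without the CHIR pair.

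Differences that depended on treatment are the counterpart of the shared ones. Of 15 primitive streak and mesoderm genes 4 rose, 0 fell and 11 passed no threshold, and the pair medians were 0.33, 2.77 and 0.74. The 8 genes with the widest range of pair differences among all genes were Aplnr, Msgn1, Lhx1, Hoxb2, Cyp26a1, Plxna2, Spic and Cxcl11. Aplnr, the receptor of apelin, read 33.7, 4485 and 356 in EpiLC, against 45.0, 42.8 and 38.9 in mESC, and Msgn1, a bHLH factor of presomitic mesoderm, read 65.2, 3768 and 51.7 in EpiLC, against 51.4, 55.7 and 56.1 in mESC. The LIM homeobox gene Lhx1, a gene of the node and the mesoderm that leaves the streak, read 63.7, 2121 and 48.6 in EpiLC, against 50.1, 43.8 and 45.5 in mESC, and Hoxb2 read 34.4, 1102 and 219 in EpiLC, against 33.7, 34.1 and 31.5 in mESC. All 4 were high in EpiLC with CHIR and near the mESC level in untreated EpiLC; in EpiLC with CHIR and PD, Aplnr and Hoxb2 stood above mESC, and Msgn1 and Lhx1 at its level. The retinoic acid hydroxylase Cyp26a1 read 29.7, 917 and 29.9 in EpiLC, against 32.3, 34.4 and 28.9 in mESC, and the semaphorin receptor Plxna2 read 43.1, 730.1 and 34.7 in EpiLC, against 48.6, 48.6 and 62.0 in mESC. Spic, an Ets factor, depended on the mESC arrays instead. It read 72.4, 77.1 and 55.9 in EpiLC, against 785, 91.5 and 1638 in mESC, so that the difference was small in the CHIR pair and large in the other two. The chemokine gene Cxcl11 read 44.1, 36.7 and 1055 in EpiLC, against 39.0, 25.1 and 41.6 in mESC, and Fgf5 had pair differences of 5.13, 4.44 and 0.98. None of these 9 passed the limma threshold, with adjusted p from 0.0506 for Fgf5 to 0.575 for Plxna2. Apelin and its receptor differ in this, since Apln was higher in EpiLC in all 3 pairs and Aplnr in those with CHIR.

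**Figure D5:**
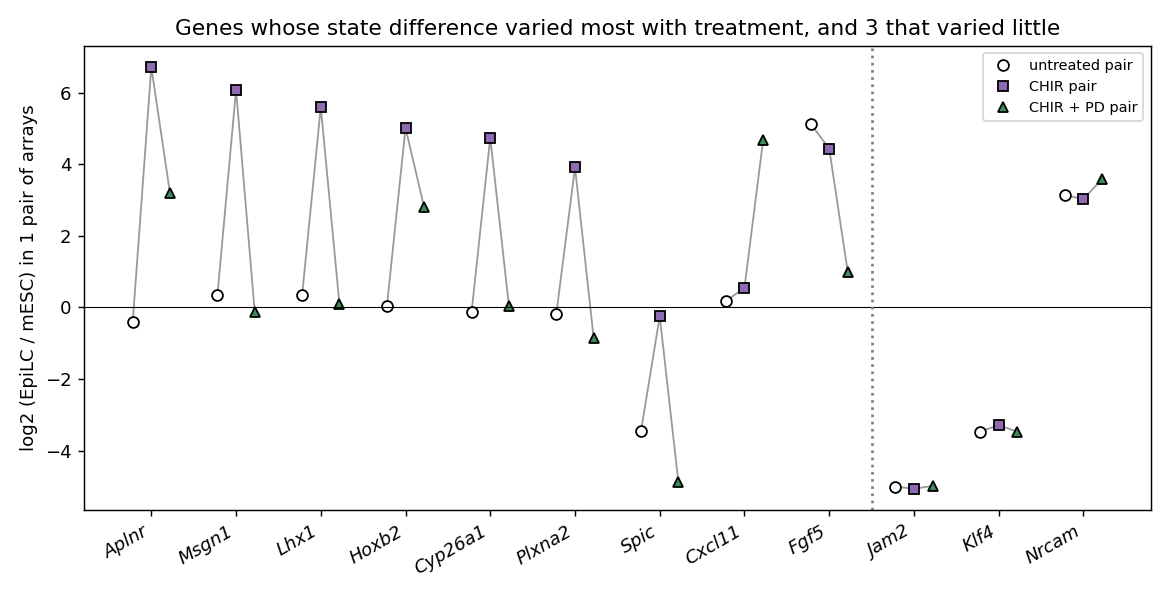
Log2 difference of EpiLC minus mESC in each of the 3 pairs of arrays, for the genes with the widest range of pair differences and Fgf5 (left of the dotted line) and for Jam2, Klf4 and Nrcam (right of it). Aplnr, Msgn1 and Lhx1 differ by more than 5 in the CHIR pair and by less than 1 in the untreated pair, whereas the 3 points of Jam2 lie within 0.1 of each other.

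Genes of other cell types were read as lists. Of 15 primitive endoderm genes 1 rose (Lamb1) and 1 fell (Lama1), with sums of 2502 to 4193 in EpiLC and 2570.0 to 3217 in mESC. The defining factor Gata6 read 85.9, 619 and 75.6 in EpiLC, against 71.5, 84.4 and 67.8 in mESC, and Pdgfra read 18.0, 224 and 32.4 in EpiLC, against 26.0, 43.2 and 48.8 in mESC, both high in EpiLC with CHIR alone. Sums over 12 fibroblast genes were 3572 to 8715 in EpiLC and 3923 to 5231 in mESC. Tagln and Col1a1, of contractile and collagen-producing cells, rose by 1.43 (limma SE 0.19, adjusted p = 0.0131) and by 1.38 (limma SE 0.18, adjusted p = 0.0123), at 374, 343 and 1606 in EpiLC, against 169, 154 and 408 in mESC, and 198, 165 and 370.3 in EpiLC, against 84.3, 80.8 and 101 in mESC, while Lum, Dcn and Postn stayed under the array medians. Of 11 neuroectoderm genes 2 rose, Nes and Sox11. Nes, an intermediate filament of progenitors, read 379, 574 and 688 in EpiLC, against 126, 96.4 and 125 in mESC. Sox11 rose by 1.18 (limma SE 0.22, adjusted p = 0.0331). Sox1, an early neural factor, read 53.5, 43.2 and 885 in EpiLC, against 55.8, 49.2 and 64.01 in mESC. It was high on 1 array and passed no threshold (limma adjusted p = 0.429). Sums of this list were 1327 to 2352 in EpiLC and 882 to 1053 in mESC, sums of the primitive streak list were 2517 to 22510.0 in EpiLC and 1127 to 1921 in mESC, and sums of the 2-cell-like list were 358 to 414 in EpiLC and 384 to 631 in mESC. The highest streak sum was that of EpiLC with CHIR. Whether other cells in a culture had a part in any difference given above was not tested. With 1 pair of arrays left out at a time, Tagln, Col1a1 and Nes kept the limma call. A fit without 1 pair ended the limma call (highest adjusted p in parentheses) of Lamb1 (0.0565) without the CHIR pair, and that of Lama1 (0.109) and Sox11 (0.0546) without the untreated pair.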

How the data were processed

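Total RNA was read on 6 Affymetrix arrays (Mouse Gene 2.0 ST), 1 per group, and the authors analysed the scans with GeneSpring GX 11.5, per the series' design text. The authors deposited 1 linear intensity per probe, normalized between arrays in a way that is not stated here. All arrays had a lowest intensity of 16, which compresses differences of dim genes, and precision is limited by the number of arrays. Of 33793 probes, 23521 carried 1 gene symbol, 1814 several and 8458 none. Symbols came from GEO's platform annotation, and 23328 probes matched the RefSeq gene table by Entrez identifier with 0 symbols changed. Log2 intensities were averaged per symbol, giving 22180 genes, 1082 of them with more than 1 probe. Raw scans and a genome build of the probes were not used here.

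State plus treatment was fitted with limma 3.58.1 in R 4.3.3 (lmFit, eBayes, 2 residual degrees of freedom, 3.71 prior degrees of freedom), two-sided, with Benjamini-Hochberg adjustment over all genes and a threshold of 0.05. Treatment pairs the arrays, as the labels give it. Named are the 15 genes with the largest rise and fall past the threshold with 1 sign in all pairs, 5 given markers, up to 5 genes per list by size, 5 per direction by smallest SE, 8 by range of pairs, and runs of 3 neighbours. Predicted, clone and small RNA symbols were passed over in the ranking at both ends. Other list members named, and Larp7, were chosen after their values were seen. The comparison, the 28 lists (450 genes, 410 of them measured, 40 not, among them T) and the naming rule were all chosen with earlier results of these data known. Columns of per-sample values outside the 6 arrays numbered 0. The fit was tested on simulated data. Alternatives were the lowest intensity, a filter on dim genes, quantile normalization, the brightest probe, each pair left out, no treatment term and other moderation. Where a fit without 1 pair ended a call, the pair named is that with the highest adjusted p. Fits without another pair, or other alternatives, may have ended the same call.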

Additional observations from a re-analysis of the deposited data

Results flagged for a closer look

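Probes outside the comparison also differed between the states. Of 1814 probes that carry several gene symbols, 7 (0.386%) were higher and 42 (2.32%) lower in EpiLC by 2-fold or more in all 3 pairs. Of 8458 probes with no gene listed, 19 (0.225%) were higher and 74 (0.875%) lower by the same measure. Probes with 1 symbol gave 154 higher (0.655%) and 330 lower (1.4%) of 23521. These signals belong to no single named gene and were left out of every count in the report, which is why they are listed here. In each of the 3 kinds of probe, falls outnumbered rises.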

How the results depend on the processing

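A fit without any treatment term (no pairing of the arrays) called 611 genes higher and 764 lower in EpiLC, of which 552 and 698 were among the 921 and 920 of the paired fit. Without moderation of the variances 0 genes were called higher, 0 lower and 0 in all by limma's ordinary fit, with 3524 at an unadjusted p below 0.05, against 5317 with moderation, so every call rests on moderation with 2 residual degrees of freedom. With a lowest intensity of 4 in place of 16, calls numbered 1016 (461 higher, 555 lower), and with 64 in place of 16 the genes at least 2-fold apart in all 3 pairs numbered 237 (57 higher, 180 lower). Leaving out 1 pair gave 945 to 1276 calls (421 to 626 higher, 524 to 676 lower), with fewer arrays in each fit, and 525 to 754 genes at least 2-fold apart in the remaining pairs (180 to 333 higher, 333 to 421 lower), where fewer pairs must pass. The lowest counts of calls came without the CHIR pair, and 385 of the genes higher and 478 of those lower were called in both. Leaving dim genes out gave 1008 higher and 926 lower, quantile normalization 929 and 906, the brightest probe 947 and 931, and trend with robust moderation 1116 and 1059. The median of the apoptosis list reversed, at -0.03 without the CHIR and PD pair against 0.13 with all 3 (up to 0.25 without the untreated pair); the cause was not tested. Medians close to 0 also changed sign in 1 or more settings, those of the guidance, neuroectoderm, imprinted and matrix lists. No named gene that passed the limma threshold changed sign in any of these settings. Of the calls, 12 genes called higher and 57 called lower were under 64 on all 6 arrays. A replicate block beyond treatment could not be fitted, because each group is 1 array.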

Other observations

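Some gene families and classes that the lists do not cover were picked after their values were seen, so they are given as counts only, to be read against 4.15% of all genes in each direction. Of 17 Kruppel-like factor genes (Klf) 8 fell and 0 rose, with a median of -0.62. Of 14 Platr transcripts, long noncoding RNAs named for their expression in pluripotent cells, 6 fell and 0 rose (median -0.55). Of 1926 long noncoding RNA genes 8 rose (0.415%) and 42 fell (2.18%), against 882 (4.65%) and 828 (4.37%) of 18964 protein-coding genes. Of 10 Fzd genes, which encode Wnt receptors, 4 rose and 1 fell (median 0.27). Of 12 Lrp genes, most of them of the LDL receptor family with other ligands, 5 rose and 0 fell (median 0.53). Of 20 tetraspanin genes (Tspan) 6 rose and 1 fell.

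Small nucleolar RNAs guide the modification of ribosomal RNA. Of 80 measured 17 rose (21.2%) and 4 fell (5%), and of the 47 C/D box RNAs (Snord) 13 rose and 2 fell, with a median of 0.26. They lie in introns of other genes, and the array reads whole host transcripts and mature RNA alike.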
